A study of Mus musculus with 15 samples.

Results

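Mice fed cuprizone and given siponimod were compared with untreated control mice, 5 against 5, in RNA of mixed corpus callosum and neocortex, gene by gene over 17445 tested genes. The 10 mice are 10 of the 15 of the study and were chosen by their labelled group. All 15 mice are labelled wild type. The control mice ate standard chow and received no treatment, and no vehicle is named for them. The siponimod mice ate chow with 0.25% (w/w) cuprizone for 3 weeks and were given siponimod at 3.125 mg/kg. Another group of 5 mice had cuprizone for the same 3 weeks with vehicle and is used here for 1 side comparison. Because the control mice received neither agent, effects of cuprizone, of siponimod and of dosing cannot be told apart between the siponimod and the control mice. No source used here gives the strain, sex or age of the mice, or the route and schedule of siponimod.

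Cuprizone is a copper chelator. Fed to mice, it leads to the death of mature oligodendrocytes and the loss of their myelin, most plainly in the corpus callosum, while microglia and astrocytes become reactive and progenitors later form new oligodendrocytes. Unlike immune models of demyelination, it acts without an attack by lymphocytes, and the damage in oligodendrocytes is thought to start in their mitochondria. Siponimod is a drug for multiple sclerosis that binds the sphingosine 1-phosphate receptors S1P1 and S1P5. S1P1 lets lymphocytes leave lymph nodes and is also made by astrocytes and endothelium, and S1P5 is a receptor of mature oligodendrocytes.

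Expression was given as TPM (transcript abundance per length, with each library scaled to the same total), which keeps no sequencing depth. Depth is therefore unknown, and the spread between mice is the error used. Differences are on the scale of log2(TPM + 0.5), which understates the change of genes with low TPM, and adjusted p-values are from limma with Benjamini-Hochberg adjustment over all tested genes at 0.05. The 10 libraries were alike, with correlations of log2 values between 0.980 and 0.991, and the median SD of a gene was 0.14 log2 in control and 0.13 in siponimod mice. Siponimod mouse 1 lay farthest out along the first principal component (26.8, against 9.97 to 16.2 for the other siponimod mice and -21.0 to -8.39 for the control mice). Cells of both labelled tissue parts were represented: 5 neocortical neuron markers summed to 1751 to 2103 TPM in control and 1920 to 2057 TPM in siponimod mice, and 5 oligodendrocyte markers, all of them called lower, to 3102 to 4744 and 589 to 1243 TPM. The labels number the mice without saying how they were housed or processed.

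Of 17445 tested genes, limma called 507, which is 2.91%. Of these, 256 were higher (1.47%) and 251 lower (1.44%) in the siponimod mice, and 2303 genes had an unadjusted p under 0.05. The median difference over all tested genes was 0.0082 log2. Among the called genes, 480 did not overlap between the groups and 113 differed at least 2-fold, 46 of them higher and 67 lower. Of all tested genes, 472 (2.71%) had every siponimod mouse above every control mouse and 368 (2.11%) every siponimod mouse below. The calls and the lack of overlap rest on the same values, so the 480 are no separate support. Leaving out each mouse in turn gave 354 to 583 calls, and 302 of the 507 were called every time. With the vehicle mice as another group in the model 133 were called. Of the 74 genes named by rule (given below), 35 lost their call there, Olig2, Serpina3n, Etnppl, Hspa5 and Srebf1 among them. Losses among other genes reported here are not in that 35. Without siponimod mouse 1, 394 genes were called. The number of higher genes fell to 166 without control mouse 1, to 165 without control mouse 5 and to 154 without siponimod mouse 2. Of the 507 genes, 461 (90.9%) were also called in the authors' deposited table, where they were 46.5% of its 991 calls (5.14% of its genes, with 491 or 2.55% higher and 500 or 2.6% lower).

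**Figure D1:**
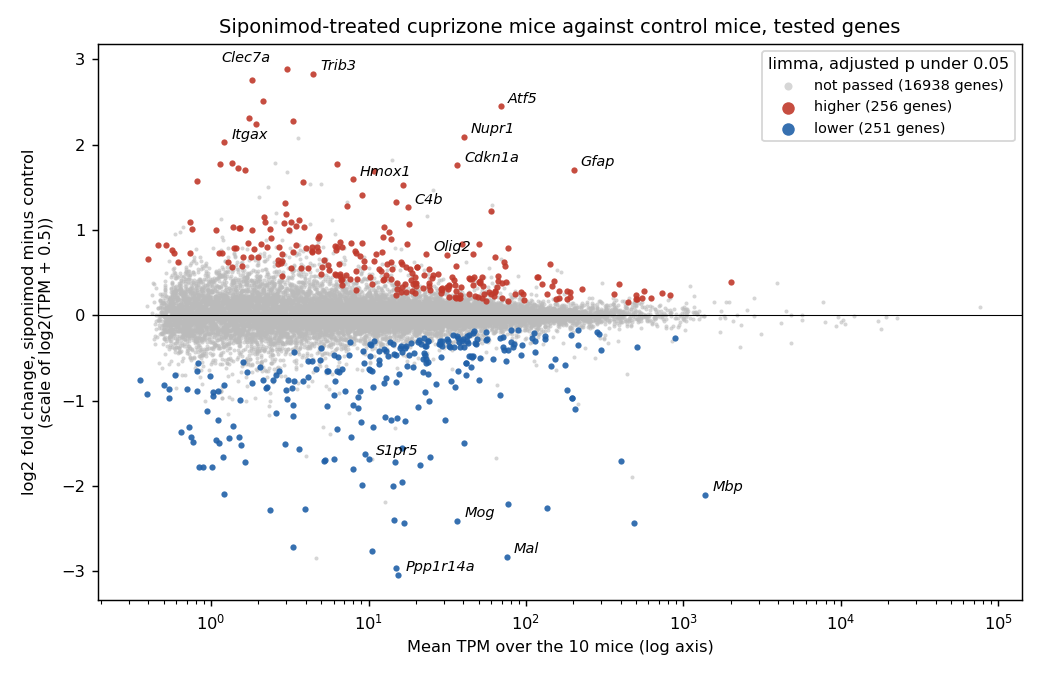
Each point is a tested gene, placed by its mean TPM over the 10 mice (log axis) and its log2 difference between siponimod and control mice. Genes higher at an adjusted p under 0.05 are red (256), lower genes are blue (251), and myelin genes such as Mal, Mog and Mbp lie lowest among the abundant genes.

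Genes of structural myelin proteins were lower in the siponimod mice. Of 14 tested structural myelin proteins, 12 were lower and 0 higher, with a list median of -1.90 log2 against 0.0082 for all tested genes. Leaving out each mouse in turn gave 11 to 13 lower genes, and 11 without siponimod mouse 1. In all 12 of these genes every siponimod mouse lay below every control mouse, as did 2.11% of all tested genes. Fewer oligodendrocytes and less RNA in each of them cannot be told apart in bulk tissue. Mbp encodes myelin basic protein, which holds the cytoplasmic faces of compact myelin together (ENSMUSG00000041607, chromosome 18, 82475146 to 82585637, GRCm38 here and for all genes). Its level was 2485, 2134, 1751, 2633 and 2034 TPM in control mice 1 to 5 and 323, 401, 649.5, 721 and 563 TPM in siponimod mice 1 to 5. The highest siponimod mouse thus had less than the lowest control mouse, and Mbp was 4.29-fold lower (-2.10 log2, 95% interval -2.52 to -1.68, adjusted p = 4.76e-05).

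Mal, a raft proteolipid that sorts membrane into myelin (ENSMUSG00000027375, chromosome 2, 127633226 to 127656695), had 128, 139, 104, 163 and 127 TPM in control and 14.1, 15.1, 21, 20.8 and 20.2 TPM in siponimod mice, a fall by 2.83 log2 (adjusted p = 8.85e-08). All siponimod mice held a like low level of Mal, far below the control mice. Mog, a glycoprotein of the outermost myelin surface (ENSMUSG00000076439, chromosome 17, 37010743 to 37023398), had 65.9, 60.6, 49, 71.9 and 61.2 TPM in control and 6.32, 10.6, 14, 16.4 and 11.1 TPM in siponimod mice. Siponimod mouse 1 was lowest and mouse 4 highest for Mog, still below every control mouse, and the difference was -2.40 log2 (adjusted p = 1.81e-05).

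The other called members filled the range between Mal and the smallest fall. Opalin, a transmembrane protein of the paranodal loops and inner tongue, fell by 2.40 log2 (adjusted p = 5.39e-06). Mag, an adhesion protein facing the axon, fell by 2.26, with 177 to 278 TPM in control and 21.4 to 73 TPM in siponimod mice (adjusted p = 0.000299). Cldn11, the claudin of myelin tight junctions, fell by 2.21 (adjusted p = 1.33e-05). Mobp and Cnp, which serve compact myelin and the cytoplasmic channels of myelin, fell by 1.71 and 0.87 log2. Pmp22, better known from peripheral myelin, had the smallest called fall (-0.35 log2), and leaving out control mouse 1, 2 or 4 ended its call, as did siponimod mouse 1, 3, 4 or 5 (adjusted p 0.0517 to 0.0791). The members that did not pass were Cd9 (-0.13 log2) and Nfasc (-0.20), which are also made by other cells, and Nfasc passed without control mouse 3 (adjusted p = 0.0161).

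**Figure D2:**
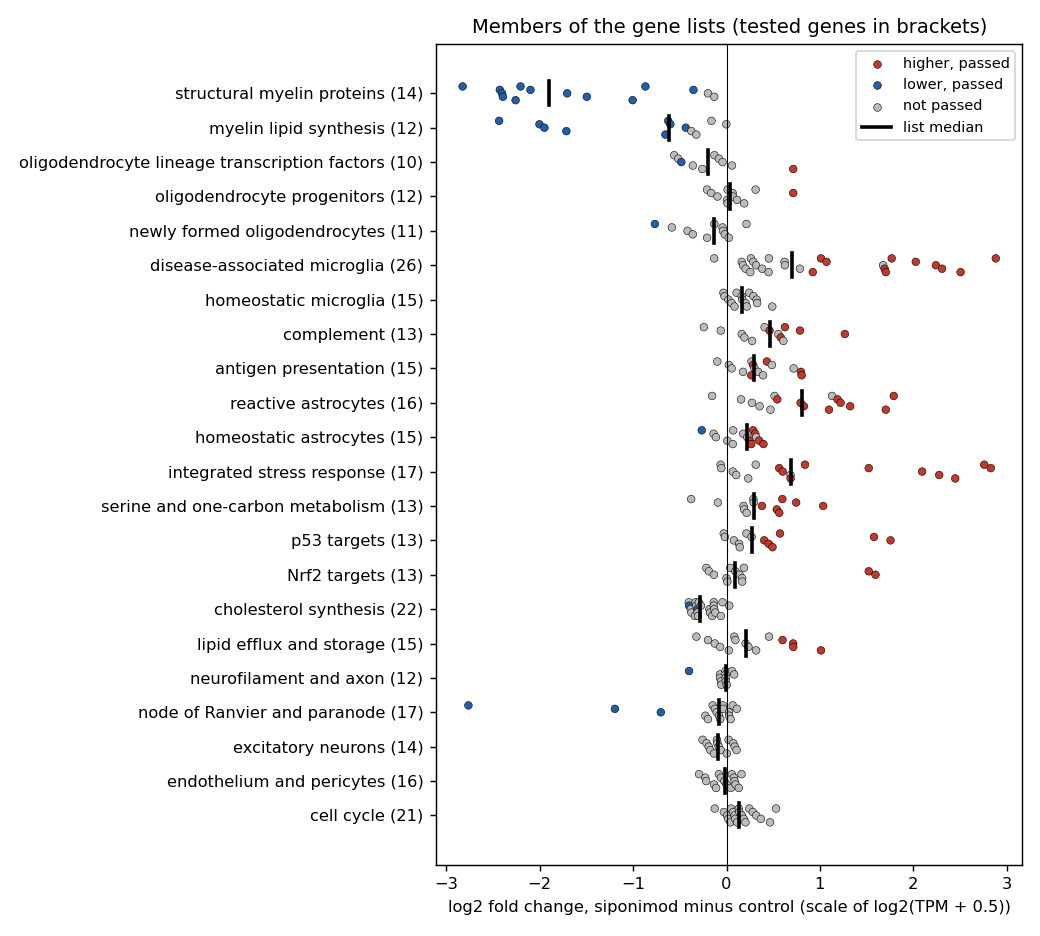
Each point is a tested gene of a list, placed by its log2 difference between siponimod and control mice, with black bars at the list medians. Among the lists shown, the medians run from -1.90 for structural myelin proteins to 0.81 for reactive astrocytes, and lists such as excitatory neurons and endothelium stay close to 0.

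Myelin genes share the transcription factor MYRF, which keeps oligodendrocytes mature and for which CTGGCAC and CTGGTAC are known as core motifs. RefSeq promoter windows (GRCm38.p6, 250 bases before to 50 after a start) were available for 12 of the 14 tested structural genes and searched for these letters on both strands. A match was present for 4 of the 12, Cnp, Mag, Mog and Opalin. All 4 were lower in the siponimod mice, as were 10 of the 12 genes with a window. Mal and Cldn11, which fell by 2.83 and 2.21 log2, had windows without a match. Of 11 tested myelin lipid genes with a window, 2 held the letters, Hapln2 and Sgms1, and of the 7 called ones 1 did, Hapln2. The letters occur in 1010 of 12269 tested genes with a window (8.23%) and in 7.10% of all windows. The windows of Mog (chr17:37023349-37023648, minus strand) and Opalin (chr19:41077064-41077363, minus strand) are shown as examples of windows with a match (-2.40 and -2.40 log2). The match is in capitals and is read on the opposite strand in both.
Mog: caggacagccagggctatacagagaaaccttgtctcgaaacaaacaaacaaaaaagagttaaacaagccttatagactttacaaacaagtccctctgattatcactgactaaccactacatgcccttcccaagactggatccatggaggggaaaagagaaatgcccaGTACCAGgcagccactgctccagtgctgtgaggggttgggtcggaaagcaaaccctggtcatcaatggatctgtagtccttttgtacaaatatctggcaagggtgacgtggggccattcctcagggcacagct
Opalin: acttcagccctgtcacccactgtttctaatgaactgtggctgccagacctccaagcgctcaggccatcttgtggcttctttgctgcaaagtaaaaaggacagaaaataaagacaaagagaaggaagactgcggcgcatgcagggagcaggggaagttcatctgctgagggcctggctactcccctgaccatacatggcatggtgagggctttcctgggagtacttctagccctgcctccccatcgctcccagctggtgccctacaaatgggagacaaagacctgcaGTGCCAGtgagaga
The match begins at position -83 from the start of Mog and at position 36 from that of Opalin. A match describes the letters and not binding.

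Enzymes of myelin lipids moved with the proteins. In a list of 12 genes, 8 were lower, against 1.44% of all tested genes, and 0 higher, with a median of -0.61 log2. Fa2h adds the hydroxyl group to the fatty acids of galactolipids (ENSMUSG00000033579, chromosome 8, 111345135 to 111393824) and had 28.4, 28.1, 23, 37.7 and 26.3 TPM in control and 3.62, 3.93, 6.23, 5.44 and 5.38 TPM in siponimod mice. No siponimod mouse came near the control range, and Fa2h was 5.41-fold lower (adjusted p = 1.92e-06). Ugt8a, which makes galactosylceramide, fell by 1.95, with 20.0 to 30.9 TPM in control and 4.31 to 7.82 TPM in siponimod mice (adjusted p = 7.95e-06). Aspa, which frees acetate for lipid synthesis, fell by 1.71 and the sulfatide enzyme Gal3st1 fell by 0.62. Elovl1 and Elovl7, elongases of long fatty acids, fell by 0.44 and 0.65, and Elovl7 was lost without control mouse 2 or siponimod mouse 1, 2 or 5 (adjusted p 0.0525 to 0.0705). Hapln2, also on this list, is not an enzyme but a link protein of the matrix at nodes of Ranvier, and fell by 2.00 (adjusted p = 2.71e-05). The 4 genes that did not pass were Sgms1, Degs1, Cyp51 and Hmgcs1, at -0.38 to -0.0014 log2.

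Among called genes of at least median level, the deepest fall of all belonged to Ppp1r14a, an inhibitor of myosin phosphatase (ENSMUSG00000037166, chromosome 7, 29289308 to 29293801). It had 31.6, 26.9, 21.9, 32 and 27.1 TPM in control and 2.58, 2.09, 3.6, 3.41 and 3.19 TPM in siponimod mice. The groups were separated by a wide gap, with an 8.22-fold difference (-3.04 log2, interval -3.34 to -2.74, adjusted p = 8.56e-08). Prr18, a proline-rich protein of little known function, fell by 1.75 (adjusted p = 3.65e-06).

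Some genes for contacts between oligodendrocytes and their partner cells were lower. In 17 tested genes of the node of Ranvier and paranode, 3 were lower and 0 higher, with a median of -0.080 log2. Of all tested genes 1.44% were lower. Gjb1, connexin 32 of myelin, fell by 1.20 and Cntn2, an adhesion protein beside the paranode, fell by 0.70 (adjusted p = 0.00198 and 0.000394). The paranodal axon proteins Cntn1 and Cntnap1 were at -0.038 and 0.066 log2 and the sodium channel Scn8a at 0.027, and none of these passed.

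S1pr5 itself, the receptor of oligodendrocytes that siponimod binds (ENSMUSG00000045087, chromosome 9, 21242912 to 21248443), had 17.4, 16.2, 12.1, 19.3 and 13.1 TPM in control mice and 4.19, 4.69, 4.56, 4.45 and 4.46 TPM in siponimod mice. The siponimod mice were nearly equal to each other, and all lay below the control mice. S1pr5 was 3.2-fold lower (-1.68 log2, interval -1.93 to -1.42, adjusted p = 5.20e-06). S1pr1, the other receptor bound by siponimod (ENSMUSG00000045092, chromosome 3, 115710433 to 115715072), had 80.2, 93.3, 83.8, 84.9 and 80.9 TPM in control and 96.7, 97.4, 88.1, 95.3 and 88.5 TPM in siponimod mice. The groups overlapped, and the difference of 0.14 log2 (interval 0.031 to 0.25) did not pass (adjusted p = 0.211).

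Of 16 tested genes of the sphingosine 1-phosphate pathway, 1 was higher and 2 lower, against 1.47% and 1.44% of all tested genes. The list median was 0.011 log2. The receptors S1pr2, S1pr3 and S1pr4 were at 0.31, 0.27 and 0.15 log2 and did not pass. Cers2, which makes ceramides with very long acyl chains, fell by 0.60, with 46.9 to 69 TPM in control and 31.4 to 38.3 TPM in siponimod mice (adjusted p = 0.00215). Plpp3, a phosphatase that removes phosphate from lipid mediators outside the cell and is abundant in astrocytes, rose from 124, 128, 137, 127 and 129.8 TPM in control to 165, 171, 157, 177 and 152 TPM in siponimod mice. All siponimod mice lay above all control mice for Plpp3, by 0.35 log2 (adjusted p = 0.000972). The kinases Sphk1 and Sphk2, the lyase Sgpl1 and the exporter Spns2 were at 0.27, -0.025, 0.15 and 0.014 log2 and did not pass.

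Few genes of earlier lineage stages passed, and Olig2 rose. Olig2 is the transcription factor that sets the oligodendrocyte lineage and is made by progenitors and mature cells alike (ENSMUSG00000039830, chromosome 16, 91225457 to 91228677). Its level was 20.6, 18.4, 14.2, 18 and 16.9 TPM in control and 28.2, 29.4, 27, 29.3 and 31.1 TPM in siponimod mice. Every siponimod mouse was above every control mouse, with a rise of 0.71 log2 (interval 0.53 to 0.90, adjusted p = 0.000354). With the vehicle mice as another group in the model the call was lost (adjusted p = 0.329), and in the other alternatives the adjusted p was 0.000172 to 0.00190. Pdgfra, the growth factor receptor that marks progenitors (ENSMUSG00000029231, chromosome 5, 75152292 to 75198215), had 14.5, 14.5, 17.5, 16.8 and 13.6 TPM in control and 16.3, 17.4, 16.6, 14.8 and 15.2 TPM in siponimod mice. These ranges overlapped, and the difference was 0.068 log2 (interval -0.10 to 0.24, adjusted p = 0.806).

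Olig2 was the 1 called gene of 12 in the progenitor list, which had a median of 0.038 log2, and without siponimod mouse 5 Sox6 passed as well (adjusted p = 0.0422). In the list of 10 lineage transcription factors, Olig2 was higher and Sox8 lower (-0.48 log2, adjusted p = 0.00870), and the median was -0.19. Sox10 and Myrf, which drive maturation, were at -0.082 and -0.13 log2 and did not pass, nor did Nkx6-2 at -0.56 or St18 at -0.52. Without control mouse 3, 3 of these factors were lower (Olig1, Nkx6-2 and Sox8), and without siponimod mouse 4, 2 were (St18 and Sox8). In 11 genes of newly formed oligodendrocytes 1 was lower, the choline phosphodiesterase Enpp6, at 3.59, 4.61, 4.23, 5.4 and 3.95 TPM in control and 3.04, 2.78, 1.49, 2.29 and 2.32 TPM in siponimod mice. The Enpp6 ranges did not overlap and the gene fell by 0.77 log2 (adjusted p = 0.0187), but leaving out control mouse 2 or 4 ended the call (adjusted p 0.0521 to 0.0524). The list median was -0.13, and Bcas1, another marker of this stage, was at -0.59 and did not pass.

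Of the axonal and neuronal genes few passed. Nefl, the light neurofilament (ENSMUSG00000022055, chromosome 14, 68083863 to 68089095), had 298, 274, 282, 292 and 276 TPM in control and 251, 289.6, 294, 292 and 288 TPM in siponimod mice. The groups overlapped, with siponimod mouse 1 lowest of the 10, and the difference was -0.0088 log2 (interval -0.11 to 0.094, adjusted p = 0.970). In 12 neurofilament and axon genes, 1 was lower and 0 higher, with a median of -0.010. It was Stmn4, a stathmin that binds tubulin, at 343, 339.5, 331, 348 and 333 TPM in control and 238, 251, 292, 249 and 254 TPM in siponimod mice. The Stmn4 ranges did not overlap, and the gene fell by 0.40 log2 (adjusted p = 0.000459).

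In 14 excitatory neuron genes 0 passed, with a median of -0.090 log2. Slc17a7, the vesicular glutamate transporter of the neocortex (ENSMUSG00000070570, chromosome 7, 45163949 to 45176142), had 678 to 818 TPM in control and 726 to 814 TPM in siponimod mice, an overlapping range (difference 0.087, interval -0.042 to 0.22, adjusted p = 0.620). In 12 inhibitory neuron genes 1 was higher, the neuropeptide Vip at 0.24 log2 (adjusted p = 0.0336), and it was lost without control mouse 1, 2 or 5 or any 1 siponimod mouse (adjusted p 0.0530 to 0.0840). Immediate early genes of neuronal activity gave 0 calls of 16 and a median of -0.27, with the lowest levels in siponimod mouse 1 (-1.21 log2 from the control mean) and control mouse 1 (-0.77).

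A rise with little spread between mice was seen in the integrated stress response, the programme in which phosphorylated eIF2 alpha slows translation while the transcription factor ATF4 is made. Of 17 tested genes, 10 were higher, against 1.47% of all tested genes, and 0 lower, with a median of 0.69 log2. The 10 include Gdf15, under 0.5 TPM in every control mouse, which entered the test through the siponimod mice alone. Leaving out each mouse in turn gave 9 to 11 higher genes, and 10 without siponimod mouse 1. Atf5, a transcription factor of this response (ENSMUSG00000038539, chromosome 7, 44812256 to 44816658), had 22.9, 26, 19.4, 19.9 and 17.6 TPM in control and 112, 114, 109, 130.4 and 119.9 TPM in siponimod mice. The siponimod mice were close to each other and all above the control mice, by 5.46-fold (2.45 log2, interval 2.25 to 2.65, adjusted p = 1.57e-08).

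Nupr1, a small stress-induced nuclear protein (ENSMUSG00000030717, chromosome 7, 126623249 to 126630861), rose from 17.2, 15.2, 13.7, 15.8 and 13.2 TPM in control to 60.4, 64, 68.9, 72.9 and 61.9 TPM in siponimod mice. It was 4.27-fold higher, with a narrow spread in both groups (adjusted p = 1.57e-08). Trib3, a pseudokinase that restrains ATF4 (ENSMUSG00000032715, chromosome 2, 152337422 to 152344032), had 0.728, 0.989, 0.606, 0.648 and 0.614 TPM in control and 9.1, 7.98, 7.87, 6.1 and 9.97 TPM in siponimod mice. The Trib3 ranges did not overlap, and the gene rose by 2.83 log2 (adjusted p = 1.56e-07).

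Gdf15, a secreted hormone of cell stress, was listed at 0 in control mice 1 and 5 and at most at 0.215 TPM in the other control mice, and had 2.36, 2.62, 3.9, 4.39 and 4.54 TPM in siponimod mice. Its fitted rise was 2.76 log2 (adjusted p = 4.79e-06), a value that depends on the pseudocount. Atf3, a stress-induced transcription factor, rose by 2.28 and Ddit3, which encodes CHOP, by 0.69 (adjusted p = 4.21e-05 and 5.39e-06). Amino acid transporters rose with them: Slc7a11, the cystine carrier, with 6.95 to 10.4 TPM in control and 21.2 to 29.5 TPM in siponimod mice (1.52 log2, adjusted p = 1.15e-05), and Slc7a5 and Slc3a2, the subunits of a carrier of large neutral amino acids, by 0.84 and 0.60. Sesn2, an inhibitor of mTORC1, rose by 0.56 and was lost without siponimod mouse 2 (adjusted p = 0.0530). The genes that did not pass included Atf4 at 0.10 log2 (interval -0.087 to 0.30) and the ATF4 targets Asns (0.068, interval -0.075 to 0.21) and Chac1 (0.69, interval 0.22 to 1.15).

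ATF4 acts with C/EBP proteins on the composite element TGATGNAAN. These letters, searched on both strands, were in the windows of 7 of 16 tested stress response genes with a RefSeq promoter, among them 4 of 9 called genes, Atf3, Nupr1, Slc7a11 and Trib3. The remaining 3 genes with the letters were Asns, Chac1 and Vldlr, and none of these passed. In serine and one-carbon metabolism 2 of 11 tested genes with a window held them, Pck2 and Pycr1, and in aminoacyl tRNA synthetases 5 of 12, while the 1 called synthetase gene with a window did not. Of all tested genes with a window, 334 of 12269 hold the letters (2.72%), as do 3.95% of all windows. Atf5, Gdf15 and Ddit3, also called higher, are among the genes whose windows lack the letters. The windows of Nupr1 (chr7:126625421-126625720, minus strand), Trib3 (chr2:152344011-152344310, minus strand) and Slc7a11 (chr3:50443564-50443863, minus strand) are shown as examples of raised genes with a match, with matches in capitals.
Nupr1: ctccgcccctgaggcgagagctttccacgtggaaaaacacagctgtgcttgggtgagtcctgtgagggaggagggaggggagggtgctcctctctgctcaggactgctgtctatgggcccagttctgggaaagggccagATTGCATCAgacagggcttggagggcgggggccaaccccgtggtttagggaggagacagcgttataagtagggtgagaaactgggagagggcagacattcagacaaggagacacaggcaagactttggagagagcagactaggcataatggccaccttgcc
Trib3: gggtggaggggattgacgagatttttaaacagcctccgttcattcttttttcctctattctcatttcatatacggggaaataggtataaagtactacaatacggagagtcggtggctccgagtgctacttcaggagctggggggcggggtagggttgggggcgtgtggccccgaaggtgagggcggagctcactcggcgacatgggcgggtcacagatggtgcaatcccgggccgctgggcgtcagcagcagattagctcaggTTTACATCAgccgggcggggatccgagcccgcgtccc
Slc7a11: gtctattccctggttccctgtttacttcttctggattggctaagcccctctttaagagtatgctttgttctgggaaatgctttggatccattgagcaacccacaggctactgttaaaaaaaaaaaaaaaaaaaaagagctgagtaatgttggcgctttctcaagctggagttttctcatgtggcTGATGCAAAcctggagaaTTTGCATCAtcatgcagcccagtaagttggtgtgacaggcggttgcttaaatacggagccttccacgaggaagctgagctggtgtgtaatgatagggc
Slc7a11 has 2 matches, 1 on each strand, and the first begins at position -66. The single matches of Nupr1 and Trib3 lie on the opposite strand and begin at positions -111 and 13.

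Genes of amino acid and folate metabolism, several of them known ATF4 targets, rose in part. In 13 tested genes of serine and one-carbon metabolism, 6 were higher, against 1.47% of all tested genes, and 0 lower. The list median was 0.29 log2, and 4 to 6 genes were higher when each mouse was left out. Mthfd2, a mitochondrial folate enzyme (ENSMUSG00000005667, chromosome 6, 83305691 to 83325908), had 8.33, 10.7, 8.33, 8.17 and 5.29 TPM in control and 15.2, 18, 16.3, 16.7 and 18.4 TPM in siponimod mice. These ranges did not overlap, and the rise was 1.04 log2 (adjusted p = 0.000929). Phgdh and Psph, the first and last enzymes of serine synthesis, rose by 0.38 and 0.54 (adjusted p = 0.000671 and 0.00740). Psat1 between them was at 0.22 and did not pass. Aldh1l2 and the proline enzymes Aldh18a1 and Pycr1 were the other higher genes, at 0.60, 0.56 and 0.75. Aldh1l2 was lost without siponimod mouse 2 (adjusted p = 0.0503) and Pycr1 without control mouse 1 or 5 or siponimod mouse 2, 4 or 5 (adjusted p 0.0514 to 0.0554).

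In 19 aminoacyl tRNA synthetases 1 was higher, Eprs, which charges glutamate and proline (0.43 log2, adjusted p = 0.000229), and the median was 0.080. Aars passed as well without siponimod mouse 1 or 4. In 18 chaperones of the endoplasmic reticulum 1 was higher, Hspa5, which encodes BiP (ENSMUSG00000026864, chromosome 2, 34771970 to 34777547), with 163, 179, 175, 172 and 171 TPM in control and 204, 211, 219, 188 and 223 TPM in siponimod mice. The Hspa5 ranges did not overlap, and the rise was small (0.28 log2, interval 0.17 to 0.38, adjusted p = 0.00630). The list median was 0.10, and a second chaperone passed without control mouse 2 (Sdf2l1) or siponimod mouse 1 or 4 (Manf). Total Xbp1 RNA was at 0.0059, a gene level that does not show its splicing.

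Several p53 targets rose as well. Of 13 tested genes, 6 were higher, against 1.47% of all tested genes, and 0 lower, with a median of 0.27 log2. The 6 include Eda2r, under 0.5 TPM in every control mouse, which entered the test through the siponimod mice alone. With each mouse left out, 5 to 7 genes were higher. Cdkn1a encodes p21, which halts the cell cycle (ENSMUSG00000023067, chromosome 17, 29090976 to 29100727), and had 14.6, 16, 17, 17.6 and 16.3 TPM in control and 58.7, 51.1, 49.2, 62.8 and 59.8 TPM in siponimod mice. It was 3.38-fold higher in a narrow range (adjusted p = 5.82e-08). Cdkn1a is also on the list of glucocorticoid-responsive genes, where it was the 1 called gene of 13 and the median was -0.063. Eda2r, a receptor of the TNF receptor family, had 0.0660 to 0.269 TPM in control and 1.2 to 1.9 TPM in siponimod mice (1.58 log2, adjusted p = 4.18e-05). Aen, an exonuclease of apoptosis, rose by 0.49, Phlda3, an inhibitor of AKT, by 0.57, Ccng1 by 0.40 and Bbc3, the death factor PUMA, by 0.45. Bbc3 was lost without control mouse 1, 2 or 5 or siponimod mouse 2, 3 or 5 (adjusted p 0.0539 to 0.0831). Mdm2 was at 0.27 and Bax at 0.14 and neither passed, though Mdm2 did without control mouse 3 or 4.

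Of 13 tested Nrf2 targets 2 were higher, Slc7a11 and Hmox1, against 1.47% of all tested genes, and 0 lower. The list median was 0.095 log2. Hmox1, the enzyme that breaks down haem (ENSMUSG00000005413, chromosome 8, 75093621 to 75100589), had 3.74, 4.07, 3.53, 3.64 and 3.15 TPM in control and 17.8, 13.1, 9.09, 11.5 and 9.93 TPM in siponimod mice. Siponimod mouse 1 was highest, all were above control, and the rise was 1.60 log2 (adjusted p = 5.58e-05). Nqo1, Gclc and Txnrd1, classical Nrf2 targets, were at 0.0092, 0.040 and 0.095 and did not pass. Among 14 genes of copper handling and metallothioneins 1 was higher, Mt3, the metallothionein of brain, at 0.24 log2 (adjusted p = 0.0441), and its call was lost without any 1 mouse except siponimod mouse 2 (adjusted p 0.0505 to 0.112). The copper importer Slc31a1 was at -0.18 and Atp7a, which exports copper, at -0.10. In 21 nuclear genes of oxidative phosphorylation and 13 genes of the mitochondrial genome 0 passed, with medians of 0.0069 and -0.030.

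**Figure D3:**
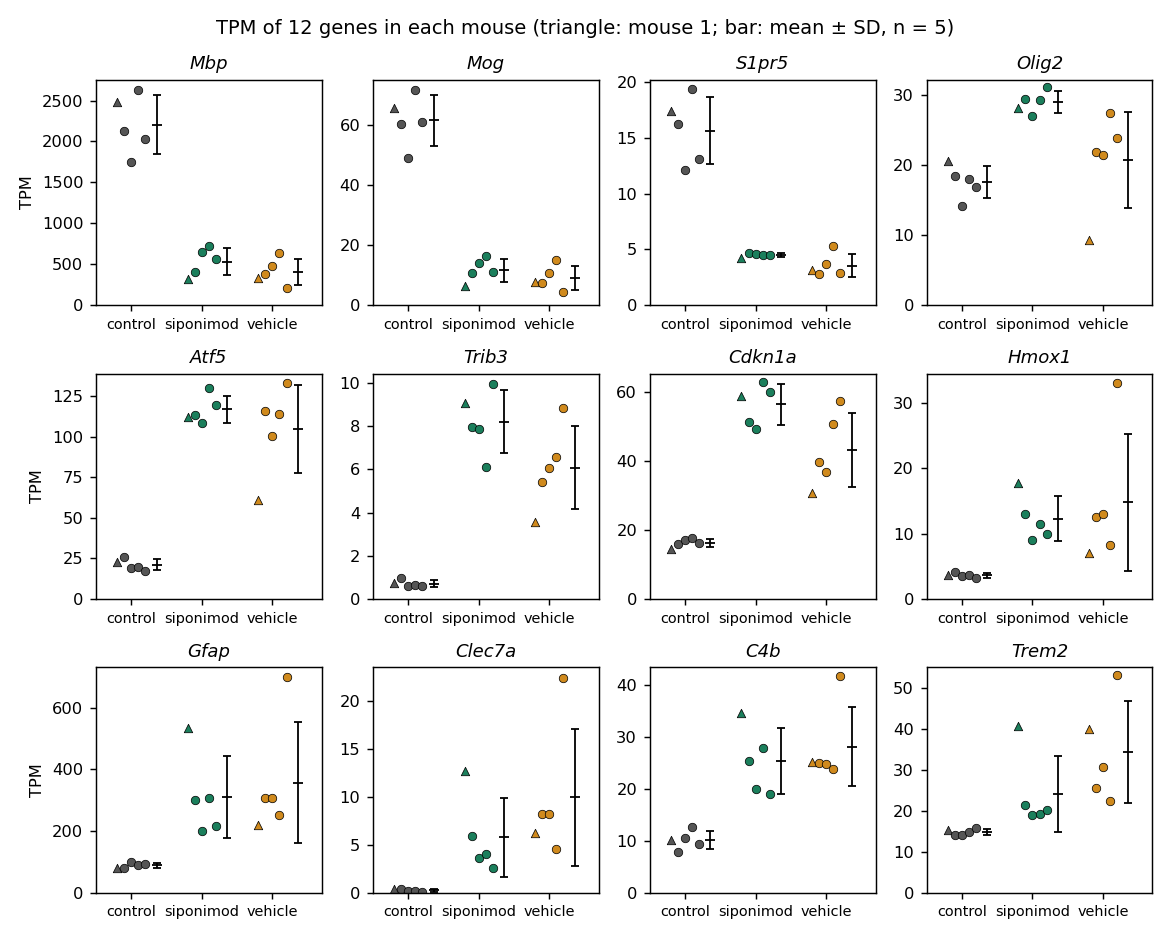
TPM of 12 genes in each mouse (linear axes from 0) for control, siponimod and vehicle mice, with mean and SD (n = 5) beside the points and triangles for the mice numbered 1. Myelin genes and S1pr5 are low in every siponimod mouse, Atf5 and Cdkn1a are high with little spread, and Gfap, Clec7a and Trem2 are highest among siponimod mice in mouse 1.

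Genes of disease-associated microglia, the phagocytic state taken near damaged myelin, rose in part, several of them from very low control levels. Of 26 tested genes 11 were higher and 0 lower, with a median of 0.71 log2. In 15 of the 26 every siponimod mouse lay above every control mouse, as did 2.71% of all tested genes. Both counts include Clec7a, Itgax, Ccl4 and Cst7, which were under 0.5 TPM in every control mouse. Genes were tested if above 0.5 TPM in at least 5 of the 10 mice. These 4 thus entered through the siponimod mice alone, and their lack of overlap was fixed by that filter. The count of higher genes was 12 without siponimod mouse 1 and 7 without siponimod mouse 2. Clec7a, a receptor for fungal glucans (ENSMUSG00000079293, chromosome 6, 129461591 to 129472779), had 0.424, 0.418, 0.146, 0.204 and 0.0773 TPM in control and 12.8, 5.93, 3.66, 4.01 and 2.55 TPM in siponimod mice. No mouse overlapped, siponimod mouse 1 was highest, and the fitted rise was 2.88 log2 (interval 2.18 to 3.58, adjusted p = 0.000229).

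Itgax, the integrin CD11c, had at most 0.183 TPM in control and 5.14, 2.15, 1.34, 1.75 and 1.14 TPM in siponimod mice (2.03 log2, adjusted p = 0.000985). Cst7, an inhibitor of cathepsins, had at most 0.406 TPM in control and 10.6, 3.03, 1.42, 1.88 and 1.37 TPM in siponimod mice (2.24 log2, adjusted p = 0.00870), with mouse 1 far above the rest. The chemokines Ccl3 and Ccl4 rose by 2.51 and 2.31 (adjusted p = 0.000985 and 0.000929). Cd52 and Lyz2, made by microglia and other leukocytes, rose by 1.69 and 0.92. Cd68, a lysosomal membrane protein of phagocytes, had 10.5, 10.8, 11.4, 9.77 and 12.3 TPM in control and 41.4, 31.8, 17.6, 19.7 and 15.7 TPM in siponimod mice. It was 2.1-fold higher (adjusted p = 0.0179), and the call was lost without siponimod mouse 2 (adjusted p = 0.0530). Ccl6 (1.77), Lilrb4a (1.71) and Ch25h (1.01) were lost without control mouse 5 or siponimod mouse 2, and each without 1 or more of the other control mice (adjusted p 0.0563 to 0.0829).

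Trem2, the lipid-sensing receptor by which microglia enter this state (ENSMUSG00000023992, chromosome 17, 48346401 to 48354147), had 15.3, 14, 14.2, 14.8 and 15.9 TPM in control and 40.9, 21.5, 19, 19.3 and 20.2 TPM in siponimod mice. All siponimod mice lay above all control mice, with mouse 1 far above the other siponimod mice. The difference of 0.62 log2 did not pass (adjusted p = 0.0848). Without siponimod mouse 1 it was 0.42 and passed (adjusted p = 0.00406). Spp1, Gpnmb and Lpl, further genes of the state, were at 0.79, 0.45 and 0.25 and did not pass, and Apoe, which is also made by astrocytes, was at 0.20.

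Blood-borne cells could be measured in part only. Of the T cell markers Cd4 alone was analysed here, and it was at -0.30 log2 and did not pass. Erythrocyte genes had a median of 1.19 log2 with 0 calls of 6, and the sum of 3 of them was 8.27 to 78.7 TPM in control and 56.1 to 237 TPM in siponimod mice, an overlapping range. Haemoglobin genes have near-identical copies, so their single levels are uncertain. The summed level of 4 microglial markers was 102 to 128 TPM in control and 118 to 149 TPM in siponimod mice, with 0 of the 4 called. The part of blood in the rises of immune genes was not tested.

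In 15 homeostatic genes 0 passed, with a median of 0.17 log2. Tmem119, a surface marker of resident microglia (ENSMUSG00000054675, chromosome 5, 113793729 to 113800516), had 13.6, 15.1, 15.2, 12.5 and 15.1 TPM in control and 16.4, 15.6, 15.7, 13.7 and 13 TPM in siponimod mice. Its ranges overlapped in part (difference 0.055, interval -0.12 to 0.23, adjusted p = 0.856). Aif1, which encodes IBA1 (ENSMUSG00000024397, chromosome 17, 35170991 to 35176068), had 9.6, 8.63, 9.38, 7.76 and 8.86 TPM in control and 11.8, 11.5, 9.12, 10.3 and 13.5 TPM in siponimod mice. The ranges overlapped by siponimod mouse 3, and the difference was 0.32 (interval 0.10 to 0.54, adjusted p = 0.148). P2ry12, the receptor that drives microglial processes toward injury, was at -0.033 and Cx3cr1 at 0.22.

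Of 13 tested complement genes 5 were higher, against 1.47% of all tested genes, and 0 lower, with a median of 0.46 log2. C4b, a component of the classical pathway (ENSMUSG00000073418, chromosome 17, 34728380 to 34743882), had 10.1, 7.79, 10.5, 12.6 and 9.45 TPM in control and 34.5, 25.3, 19.9, 27.8 and 19 TPM in siponimod mice. It was 2.41-fold higher without overlap (adjusted p = 0.000485), but a near-identical copy of the gene makes its level uncertain. C1qb, a chain of C1q, rose, with 55 to 58 TPM in control and 69 to 128 TPM in siponimod mice (0.63 log2, adjusted p = 0.0144). C1qa (0.58), C3ar1, the receptor of C3a (0.79), and the inhibitor Serping1 (0.46) were the other calls. These last 3 were each lost without control mouse 1, 4 or 5 or siponimod mouse 2 or 4, among others (adjusted p 0.0502 to 0.104), and the list then held 2 calls. Without control mouse 2 or 3 it held 3, and without siponimod mouse 1 it held 5.

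In antigen presentation 5 of 15 genes were higher, against 1.47% of all tested genes, and 0 lower, with a median of 0.30 log2. Psmb8, a subunit of the immunoproteasome (ENSMUSG00000024338, chromosome 17, 34197721 to 34201454), had 4.83, 4.44, 5.85, 4.39 and 4.3 TPM in control and 11.9, 8.84, 6.85, 8.37 and 7.96 TPM in siponimod mice, without overlap (0.81 log2, adjusted p = 0.00447). H2-K1, a class I heavy chain with similar sister genes that could share its reads, rose by 0.43 (adjusted p = 0.00451). B2m (0.29), the loading protein Tapbp (0.27) and the invariant chain Cd74 (0.80) were lost in 6 or 7 of the 10 fits that left out 1 mouse (adjusted p 0.0521 to 0.0987). The list held 3 calls without control mouse 1, 2 or 3 or siponimod mouse 1 or 2, and 2 without control mouse 5 or siponimod mouse 4. The class II genes H2-Aa and H2-Ab1 were at 0.27 and 0.34 and did not pass.

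Against 1.47% higher and 1.44% lower of all tested genes, 2 of 15 interferon response genes were higher and 0 lower. The list median was 0.27 log2, and the 2 were the antiviral proteins Oasl2 (0.75, adjusted p = 0.00870) and Ifit3 (0.64, adjusted p = 0.00740). Both held without each mouse in turn. In 19 lysosomal genes 2 were higher, Cd68 and the progranulin gene Grn (0.45, adjusted p = 0.0451), and 1 lower, the cholesterol exporter Npc1 (-0.30, adjusted p = 0.0243), with a median of 0.18. Grn was lost without any 1 control mouse or siponimod mouse 2 or 5 (adjusted p 0.0580 to 0.111) and Npc1 without control mouse 4 or 5 or siponimod mouse 2, 3 or 5 (adjusted p 0.0534 to 0.0655), so that 0 lysosomal genes were called without siponimod mouse 2.

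The average level of reactive astrocyte genes was higher in every siponimod mouse than in any control mouse. Of 16 tested genes 9 were higher, against 1.47% of all tested genes, and 0 lower, with a median of 0.81 log2. With each mouse left out, 8 to 11 genes were higher (9 without siponimod mouse 1). Gfap, the glial filament protein that marks reactive astrocytes (ENSMUSG00000020932, chromosome 11, 102887336 to 102900912), had 81.6, 80.2, 99.5, 91.7 and 94.6 TPM in control and 533, 302, 199, 307 and 216 TPM in siponimod mice. The lowest siponimod mouse exceeded every control mouse, mouse 1 was highest, and the rise was 3.26-fold (1.71 log2, interval 1.26 to 2.15, adjusted p = 0.000403). Vim, another filament, rose from 35.4, 30.7, 38.8, 34.3 and 35.5 TPM in control to 130.3, 74.7, 62.6, 85.6 and 70.7 TPM in siponimod mice. Mouse 1 was again highest, no siponimod mouse reached down to the control range, and Vim rose by 1.22 log2 (adjusted p = 0.000542).

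Serpina3n, a secreted protease inhibitor (ENSMUSG00000021091, chromosome 12, 104406729 to 104414329), had 6.92, 6.14, 7.12, 7.2 and 12.5 TPM in control and 38.5, 17.1, 13.5, 25.5 and 14.4 TPM in siponimod mice. Control mouse 5 came close to the lowest siponimod mice without reaching them, and the rise was 1.32 log2 (adjusted p = 0.0157). Cxcl10, a chemokine induced by interferon, rose by 1.79 from at most 0.507 TPM in control (adjusted p = 9.23e-05). The cytokine receptor Osmr rose by 1.19 and the hyaluronan receptor Cd44 by 1.10, and Cd44 was lost without control mouse 1, 2 or 4 or siponimod mouse 2 or 4 (adjusted p 0.0502 to 0.0692). Timp1, an inhibitor of metalloproteases, was at 1.13 and did not pass (adjusted p = 0.117), but did without siponimod mouse 5.

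In 15 genes of homeostatic astrocytes 6 were higher and 1 lower, against 1.47% and 1.44% of all tested genes. The list median was 0.22 log2. Aldh1l1, a folate enzyme that marks astrocytes (ENSMUSG00000030088, chromosome 6, 90486427 to 90600203), had 42.4, 43.6, 43.6, 42.7 and 44.5 TPM in control and 61.7, 59, 54.4, 58.6 and 52.6 TPM in siponimod mice. Both groups were tight and apart (0.40 log2, adjusted p = 0.000428). Glul, glutamine synthetase, which oligodendrocytes also make, had 956, 969.9, 919, 1002 and 970.4 TPM in control and 786, 743, 825, 897 and 765 TPM in siponimod mice. All siponimod mice were below all control mice, and Glul fell by 0.27 log2 (adjusted p = 0.0117). Ndrg2 and Aldoc rose by 0.28 and 0.26, and Mlc1, a membrane protein of end-feet, by 0.25. The glutamate transporter Slc1a3 (0.31) and connexin 30, Gjb6 (0.35), were called but lost in 6 and 8 of the 10 fits that left out 1 mouse (adjusted p 0.0556 to 0.110). Aqp4, the water channel, was at 0.0084 and Slc1a2 at -0.11, and neither passed.

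Etnppl, an astrocytic enzyme that degrades phosphoethanolamine, was among the largest rises of called genes of at least median level, at 10.7, 6.15, 8.7, 10.6 and 7.13 TPM in control and 31.8, 13.9, 13, 13.2 and 19.3 TPM in siponimod mice (0.98 log2, adjusted p = 0.0415). Its groups did not overlap, but the call was lost without any 1 control mouse or siponimod mouse 2 or 5 (adjusted p 0.0519 to 0.105). Tagln2, an actin-binding protein, rose by 0.90 (adjusted p = 0.00356).

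Of 22 tested genes of sterol synthesis 2 were lower, against 1.44% of all tested genes, and 0 higher, with a median of -0.29 log2. Siponimod mice lay below control mice without overlap in 6, as they did in 2.11% of all tested genes. Sc5d, a late desaturase of cholesterol synthesis (ENSMUSG00000032018, chromosome 9, 42251595 to 42264256), had 39.9, 43.1, 40.7, 44.4 and 40.8 TPM in control and 29.8, 36, 36.8, 32.9 and 32.4 TPM in siponimod mice, and fell by 0.31 log2 (adjusted p = 0.0136). Msmo1, a sterol demethylase, fell by 0.40 (adjusted p = 0.0414) and was lost without control mouse 2, 3, 4 or 5 or siponimod mouse 1, 2 or 5 (adjusted p 0.0524 to 0.106). Without siponimod mouse 3, whose list level was nearest to control, 5 genes passed: these 2 with Sqle, Insig1 and Fdft1.

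In 15 genes of lipid efflux and storage 4 were higher, against 1.47% of all tested genes, and 0 lower. The list median was 0.20 log2. Srebf1, the regulator of fatty acid synthesis (ENSMUSG00000020538, chromosome 11, 60199089 to 60222581), had 36.7, 29.4, 30.0, 48.6 and 31.8 TPM in control and 70.0, 51.3, 53.7, 55.4 and 57 TPM in siponimod mice. Control mouse 4 came closest to the siponimod mice, and the rise was 0.71 log2 (adjusted p = 0.00721). The cholesterol exporter Abca1 (0.72), the lipid droplet protein Plin2 (0.60) and Ch25h were the other calls. Abca1 was lost without any 1 control mouse or siponimod mouse 2 (adjusted p 0.0574 to 0.0833) and Plin2 without control mouse 1, 2 or 5 or siponimod mouse 2 (adjusted p 0.0564 to 0.0715). The list therefore held 1 call without control mouse 5 or siponimod mouse 2 and 2 without control mouse 1, 2 or 4.

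Vascular, dividing and peripheral cells gave few or no calls. In 16 endothelial and pericyte genes 0 passed, with a median of -0.011 log2, and Cldn5, the claudin of the blood-brain barrier (ENSMUSG00000041378, chromosome 16, 18776847 to 18778262), had 48.5 to 64.2 TPM in control and 49.3 to 53.7 TPM in siponimod mice (interval of the difference -0.20 to 0.085, adjusted p = 0.795). In 21 cell cycle genes 0 passed, with a median of 0.13, and in 15 genes of the circadian clock 0, with a median of 0.043.

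Markers of neighbouring tissue varied between mice of the same group. The summed level of 4 choroid plexus and ependyma markers was 40.2 to 2342 TPM in control and 21.1 to 929 TPM in siponimod mice, and the list of 10 had a median of -0.75 log2 with 0 calls. Striatal genes gave 0 calls of 9 and a median of -0.25. Without control mouse 3, whose striatal level was lowest (-0.72 log2 from the control mean) and whose structural myelin level was also the lowest of the control mice (-0.29), 5 striatal genes were lower. Structural myelin genes gave 13 calls without that mouse. The 6 hippocampal genes gave 0 calls, with a median of 0.095, and Wfs1 passed without control mouse 3. The part of tissue composition in the results above was not tested.

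The lists differed in how evenly the siponimod mice responded. Averaged over the tested genes of a list, as log2 from the control mean, the integrated stress response was at 1.09, 1.11, 0.92, 1.04 and 1.11 in siponimod mice 1 to 5. Disease-associated microglia genes were at 1.85, 1.12, 0.69, 0.90 and 0.57 and reactive astrocyte genes at 1.33, 0.81, 0.61, 0.87 and 0.52. Structural myelin genes were at -2.01, -1.74, -1.41, -1.29 and -1.54. Siponimod mouse 1 was thus highest of the 5 for microglial and astrocytic genes and lowest for myelin, while its stress response lay among those of the other mice. It also held the lowest cholesterol synthesis level (-0.50) and the lowest level of activity genes. Control mice lay between -0.29 and 0.28 in these 4 lists.

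**Figure D4:**
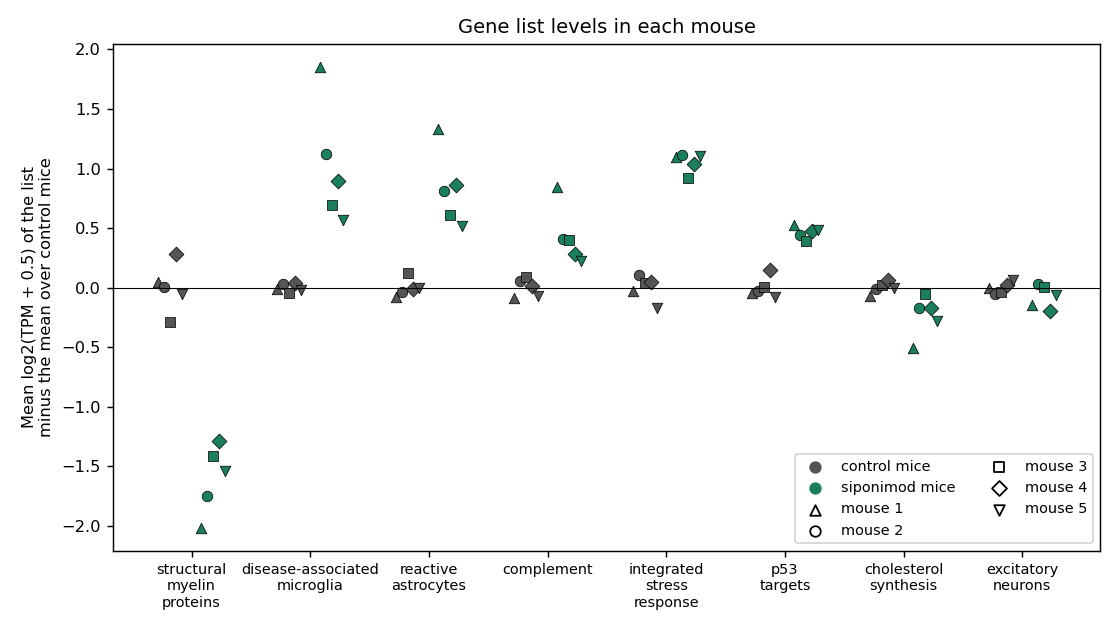
Points are averages of log2(TPM + 0.5) over the tested genes of 8 lists in each mouse, relative to the mean over control mice (grey, control; green, siponimod; marker shape, mouse number). Siponimod mice spread from 0.57 to 1.85 for disease-associated microglia and lie between 0.92 and 1.11 for the integrated stress response.

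A side comparison set the same siponimod mice against the cuprizone mice given vehicle. Vehicle mouse 1 stood apart, since the small neuronal RNA Bc1 made up 35.1% of all its TPM. In the 10 mice above that share was 6.0% to 10.4%, and in vehicle mouse 1 the median gene had 5.80 TPM. Of 17323 genes tested by limma 0 passed (0%), 357 had an unadjusted p under 0.05, and the lowest adjusted p was 0.624. Without vehicle mouse 1 again 0 passed, 1504 had an unadjusted p under 0.05, and the lowest adjusted p was 0.0733. The authors' deposited table called 279 of 13589 genes (2.05%), Olig2 among them at 0.28 log2 (adjusted p = 0.0220). It also called Cldn5 at 0.32 (adjusted p = 1.9e-06), Hspa5 at 0.28 (adjusted p = 9.2e-06) and Slc17a7 at 0.14 (adjusted p = 0.0336).

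Against vehicle mice 2 to 5, the 95% intervals of single genes are unadjusted for the number of genes. Mbp had 385, 483, 634 and 211 TPM in vehicle mice 2 to 5, and the difference of siponimod from vehicle mice was 0.36 log2 (95% interval -0.30 to 1.02). For S1pr5 these mice had 2.78, 3.65, 5.29 and 2.86 TPM and the difference was 0.30 (interval -0.038 to 0.64), and for Atf5 it was 0.019 (interval -0.15 to 0.19). Gfap was at 309, 306, 252 and 699.9 TPM in vehicle mice 2 to 5, with mouse 4 lowest and mouse 5 highest, and the difference was -0.30 (interval -0.99 to 0.39). Clec7a differed by -0.83 (interval -1.81 to 0.15), and Olig2 by 0.29 (interval 0.13 to 0.46, adjusted p = 0.494). The interval also lay above 0 for Cldn5, at 0.37 (0.27 to 0.46, adjusted p = 0.0733, the lowest of all tested genes), Hspa5, at 0.33 (0.22 to 0.44, adjusted p = 0.324), and Slc17a7, at 0.15 (0.034 to 0.26, adjusted p = 0.504), as it did for Cdkn1a and Vip. The list medians against vehicle mice 2 to 5 were 0.21 log2 for structural myelin proteins and -0.44 for disease-associated microglia. They were -0.15 for reactive astrocytes and 0.0068 for the integrated stress response. Over all genes tested in that fit the median was 0.035 log2.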

How the data were processed

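Per the labels' protocols, RNA came from a lipid tissue kit and 1 µg of it went into stranded total RNA libraries depleted of ribosomal RNA. The deposited tables are headed as a 3mRNA analysis instead, and the difference was not settled. bcl2fastq, Trim Galore 0.6.6, STAR 2.6.1d, Salmon 1.4.0 and mm10 are named in the submitters' processing notes, but no source used here states the annotation or the use of strand, and overlapping genes on opposite strands cannot be told apart. The authors deposited TPM per mouse, with a log2 fold change and its error, a statistic (a score), a p-value and an adjusted p-value, and a mean level of each of their comparisons, per the file headers. Which mice and test these rest on is not stated in the tables.

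From the TPM, genes above 0.5 TPM in at least 5 of the 10 mice were kept (17445 of 19264). The siponimod and control groups alone were fitted on log2(TPM + 0.5) with limma 3.58.1 (R 4.3.3), using a trend of variance on level and 8 residual degrees of freedom. Intervals are 95% limma intervals for single genes. The filter left out 1819 genes, 25 of them higher in every siponimod than in every control mouse. A gene under 0.5 TPM in every control mouse was kept only where all 5 siponimod mice lay above that level. Its lack of overlap was thus fixed by the filter, as for Clec7a, Itgax, Ccl4, Cst7, Eda2r and Gdf15. Vehicle mice were fitted with the siponimod mice in a model of their own. The fit was tested on simulated data. Alternatives were other pseudocounts, filters, scalings, models and each mouse left out. The labels name each mouse, and p-values set the difference between groups against the spread between mice within them. The numbers of control and siponimod mice were not taken as pairs, since same-numbered mice correlated at -0.016 to 0.094 in their deviations.

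The comparison and the 39 gene lists (586 entries, 555 tested) were chosen with earlier results of these data known. Named genes are the 12 largest rises and 12 largest falls among called genes of at least median level (predicted genes left out), up to 3 called members per list with the smallest adjusted p, and a fixed set of 14. Some genes that this rule names are not reported here. Other genes were named after their values were seen. Gene positions came from GENCODE M21 on GRCm38 (19262 genes matched), and promoter sequences from RefSeq. Tables and figures used Python 3.11.15, pandas 2.3.3, numpy 2.4.6 and matplotlib 3.10.9.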

Additional observations from a re-analysis of the deposited data

Results flagged for a closer look

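In 224 groups of 5 mice, 11 held a mouse far from the others by Dixon's test, which chance alone does in about 1 group in 20. In the siponimod mice, mouse 1 stood apart for 3 genes: Trem2 (40.9 TPM), Plin2 (11.1 TPM) and Nefl (251 TPM, below the others). In the control mice, mouse 5 stood apart for Serpina3n (12.5 TPM, against 6.14 to 7.2 TPM in the others).

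Among list levels, given as log2 from the control mean, control mouse 1 was low for immediate early genes (-0.77) and cell cycle genes (-0.17), control mouse 3 for erythrocyte genes (-1.47), and control mouse 4 was high for the sphingosine 1-phosphate pathway (0.099). Siponimod mouse 3 was low for serine and one-carbon metabolism (0.25). Hippocampal genes were high in control mouse 5 (0.53) and siponimod mouse 4 (0.74).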

How the results depend on the processing

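The count of 507 genes between siponimod and control mice stayed within 1.5 times under 9 alternatives on all 10 mice, between 381 and 520. With all 3 groups in 1 model it was 133 (37 higher and 96 lower), and these 133 were all among the 507. This model shares 1 estimate of the spread with the vehicle mice, and the cause of the lower count was not tested. Among the 74 genes named by rule, those whose call it ended were Serpina3n, Cd68, Etnppl, Tagln2, Slc7a5, Olig2, Sox8, Enpp6, Plpp3, Cers2, C1qb, C3ar1, Psmb8, H2-K1, Tapbp, Ifit3, Oasl2, Npc1, Grn, Aldh1l1, Ndrg2, Glul, Phgdh, Psph, Eprs, Hspa5, Aen, Mt3, Sc5d, Msmo1, Srebf1, Ch25h, Plin2, Cntn2 and Vip. Genes reported outside that rule are not listed, and some of them lost their call as well. The number of higher genes was 154 to 280 with each mouse left out, the number of lower genes 198 to 303 and the total 354 to 583. With mouse number as a replicate block, 381 genes were called (179 higher, 202 lower). Same-numbered mice correlated at -0.016 to 0.094, so the numbers were not taken as pairs.

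Of 1478 values for the genes named by rule under alternatives, 1360 kept their call, 117 lost it and 1 gained it (Trem2 without siponimod mouse 1). Among these values 0 changed sign. Among counts of gene lists 1437 stayed within 1.5 times and 123 moved. With 3 groups in 1 model, structural myelin proteins held 10 calls, the integrated stress response 8, disease-associated microglia 5, reactive astrocytes 3 and p53 targets 2. In cholesterol synthesis 4 genes were lower with median scaling and 5 with the replicate block. Between siponimod and vehicle mice 0 genes passed under every alternative run, including median scaling without vehicle mouse 1, which was added after the data were seen. TPM keep no depth, so what depth limits is unknown.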

Other observations

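Of the 507 called genes, 405 were on no list, and the genes below were picked from these after their values were seen. Klk6, a secreted protease of mature oligodendrocytes, fell by 2.71 log2, with 6.42, 4.23, 6.12, 9.17 and 4.65 TPM in control and 0.103, 0.494, 0.604, 0.825 and 0.534 TPM in siponimod mice (adjusted p = 2.20e-05). Il33, an alarmin stored in the nucleus of glia, had 48.2, 43.8, 31.9, 52.4 and 39.3 TPM in control and 14.8, 18.3, 20.3, 20.3 and 16.7 TPM in siponimod mice, with no overlap, and fell by 1.22 log2 (adjusted p = 0.000106). Lpar1, a receptor for lysophosphatidic acid and a relative of the sphingosine 1-phosphate receptors, fell by 1.22 log2, and Erbb3, a neuregulin receptor, fell by 0.87 (adjusted p = 2.96e-05 and 0.000353). Ninj2, Adamts4 and Anln fell by 2.28, 1.43 and 1.62.

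Among the rises, Eif4ebp1, which encodes the translation repressor 4E-BP1, had 4.57, 5.8, 4.51, 5.07 and 3.82 TPM in control and 18.4, 12.7, 12.3, 12.3 and 11.9 TPM in siponimod mice. All siponimod mice were above all control mice, by 1.41 log2 (adjusted p = 5.27e-05). Cntf, ciliary neurotrophic factor of astrocytes, rose by 1.15 (adjusted p = 0.000892) and the urea transporter Slc14a1 by 1.28 (adjusted p = 0.000319). Txnip, an inhibitor of thioredoxin, rose by 0.83 (adjusted p = 0.000179), and the stress sensor genes Gadd45a and Gadd45b by 0.56 and 0.48. Sox2, a factor of glial progenitors and astrocytes, rose by 0.33 (adjusted p = 0.0129).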
